A study of Mus musculus with 3 samples.

Results

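The genes described here encode the subunits of oxidative phosphorylation and factors that assemble its complex I, and were taken by symbol from the platform annotation, namely all that start with Nduf, Uqcr, Atp5, Cox4, Cox5, Cox6, Cox7 or Cox8, together with Sdha, Sdhb, Sdhc and Sdhd. The rule took 89 of 19938 named genes, measured by 114 probe sets. It took 34 complex I subunit genes, 7 complex I assembly factor genes (Ndufaf), 4 of complex II, 8 of complex III, 19 of complex IV and 17 of complex V. Oxidative phosphorylation is carried out in the inner mitochondrial membrane by 4 respiratory complexes and an ATP synthase. Complexes I and II pass electrons from NADH and succinate to ubiquinone, complex III passes them on to cytochrome c, and complex IV passes them to oxygen. Complexes I, III and IV pump protons, and complex V, the ATP synthase, uses the returning protons to make ATP. Most subunits are encoded in the nucleus and are built into the complexes with the help of assembly factors. In cultured fibroblasts, growth in glucose-rich medium is known to lean on glycolysis, while the respiratory chain stays in use.

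RNA came from 3 cultured lines of FSP1-positive mouse forestomach fibroblasts, with 1 Affymetrix Mouse Gene 1.0 ST array per line. Per the labels, normal forestomach gave the wild-type and the Tgfbr2/Smad4 cKO lines, whereas a squamous cell carcinoma of the forestomach gave the Tgfbr2 cKO line, so genotype and tissue of origin cannot be told apart in comparisons with that line. Here cKO is a conditional knockout, of the TGF-beta type II receptor gene Tgfbr2 alone or together with Smad4, whose protein carries TGF-beta and BMP signals into the nucleus with the receptor-activated SMADs. The labels describe the mice as a C57BL6 and BALBc mix of either sex without giving a strain or sex to a line, and the driver of the recombinase is not given in the sources used here. All 3 lines were grown in serum-containing medium, and no agent was added. A level below is the log2 signal of a gene on an array, and a difference is taken between the log2 signals of a gene on a pair of arrays. With 1 array per line there is no replicate spread, no test and no p-value, and how precise each difference is depends on this small number of arrays.

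Where 3 levels are given in a row, the first is that of wild type, the next that of Tgfbr2 cKO and the last that of Tgfbr2/Smad4 cKO. Tgfbr2 itself had levels of 10.25, 10.25 and 10.29 and Smad4 of 11.06, 11.06 and 11.04, but a transcript-wide signal does not single out deleted exons, so it checks the labels in neither direction. All 12 fibroblast markers reached the median signal of all probe sets, 6.63, on at least 1 array. Fap did so in the knockout arrays alone, with levels of 6.39, 6.80 and 7.48. S100a4, the gene of FSP1, had levels of 13.18, 13.16 and 12.71. The lines were not alike in these markers, of which 5 were at least 1.2-fold higher and 2 lower in Tgfbr2/Smad4 cKO than in wild type, led by Thy1 at -2.36 and Pdgfra at 1.40. Of 8 epithelial markers 3 reached that median, with summed levels of 10.05, 10.18 and 9.35. Epcam, Cdh1 and Krt5 were under it, while Krt19 had levels of 8.82, 9.25 and 6.93 and Krt18 was lower by 0.61 in Tgfbr2/Smad4 cKO than in wild type. Of 7 leukocyte markers 3 reached it, with summed levels of 9.74, 10.26 and 9.30. Ptprc, under it, was at 5.23 in each array, and Csf1r, which reached it, was at 6.81 in each array. The others that reached it were Lyz2, with levels of 8.70, 9.52 and 7.75, and Cd68, with levels of 7.01, 7.51 and 6.76. Both were highest in the Tgfbr2 cKO array and lowest in the Tgfbr2/Smad4 cKO array. Of 5 endothelial markers 1 reached it, with a summed level of 8.43 in each array. The 5 smooth muscle markers had summed levels of 15.80, 15.84 and 15.27, and 4 of them were at least 1.2-fold lower in Tgfbr2/Smad4 cKO than in wild type, with a median of -1.62 and with Myh11 at -3.37 and Des at -2.06. Xist had levels of 5.33, 5.35 and 9.44, and the Y-linked Eif2s3y levels of 10.12, 10.00 and 5.01, so the Tgfbr2/Smad4 cKO array also differed from the others in sex pattern. Genotype and sex pattern therefore cannot be told apart in comparisons with that array. Of 29 proliferation genes, 29 were at least 1.2-fold lower in the Tgfbr2/Smad4 cKO array than in wild type, with a median of -1.26. The part of origin, sex pattern, proliferation and these markers in the differences below was not tested.

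The oxidative phosphorylation genes differed little between the lines. On 1 array or more, 87 of the 89 genes came up to the median signal, as did 59.2% of all named genes, and these were compared by size. Cox7b2 and Cox8b did not. None of the 87 differed 2-fold in any comparison. Of all 11808 genes tested, 1.22% were higher and 2.18% lower by 2-fold or more in Tgfbr2/Smad4 cKO than in wild type, 1.32% and 2.25% in Tgfbr2/Smad4 cKO than in Tgfbr2 cKO, and 0.0254% and 0.00847% in Tgfbr2 cKO than in wild type. A smaller size, 1.2-fold or 0.263 on the log2 scale, was used to set genes apart, and 15 of the 87 passed it in at least 1 comparison, beside 25% of all genes tested. In Tgfbr2 cKO minus wild type, 3 genes were higher by that size and 0 lower, beside 1.55% and 1.36% of all genes. In Tgfbr2/Smad4 cKO minus wild type, 10 of 87 were higher and 4 lower, beside 9.18% and 13.2% of all genes. In Tgfbr2/Smad4 cKO minus Tgfbr2 cKO, 9 were higher and 5 lower, beside 9.04% and 14%. The share that was higher, 11.5% in the second comparison, was near that of all genes, and the share that was lower, 4.6%, was smaller than that of all genes. The 3 comparisons share arrays and are not independent of each other.

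The median difference over the 87 genes was 0 in each comparison, as was the median of all genes tested. Many deposited values are exactly equal between arrays, and 23 of the 87 genes had a single value in all 3, or 26.4%, beside 32.7% of all genes tested. The shares that follow are of all genes compared, equal values included. In Tgfbr2 cKO minus wild type, 38 of the 87 genes were above 0 and 10 below, or 43.7% and 11.5%, while 25.8% of all genes were above 0 and 19% below. In Tgfbr2/Smad4 cKO minus wild type, 37 were above 0 and 20 below, or 42.5% and 23%, beside 31.1% and 32.2% of all genes. In Tgfbr2/Smad4 cKO minus Tgfbr2 cKO, 34 were above 0 and 26 below, or 39.1% and 29.9%, beside 30.2% and 33.7% of all genes. The SD of the differences over the 87 genes was 0.07 for Tgfbr2 cKO minus wild type and 0.19 for the Tgfbr2/Smad4 cKO line minus wild type, against 0.095 and 0.39 over all genes tested.

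**Figure D1:**
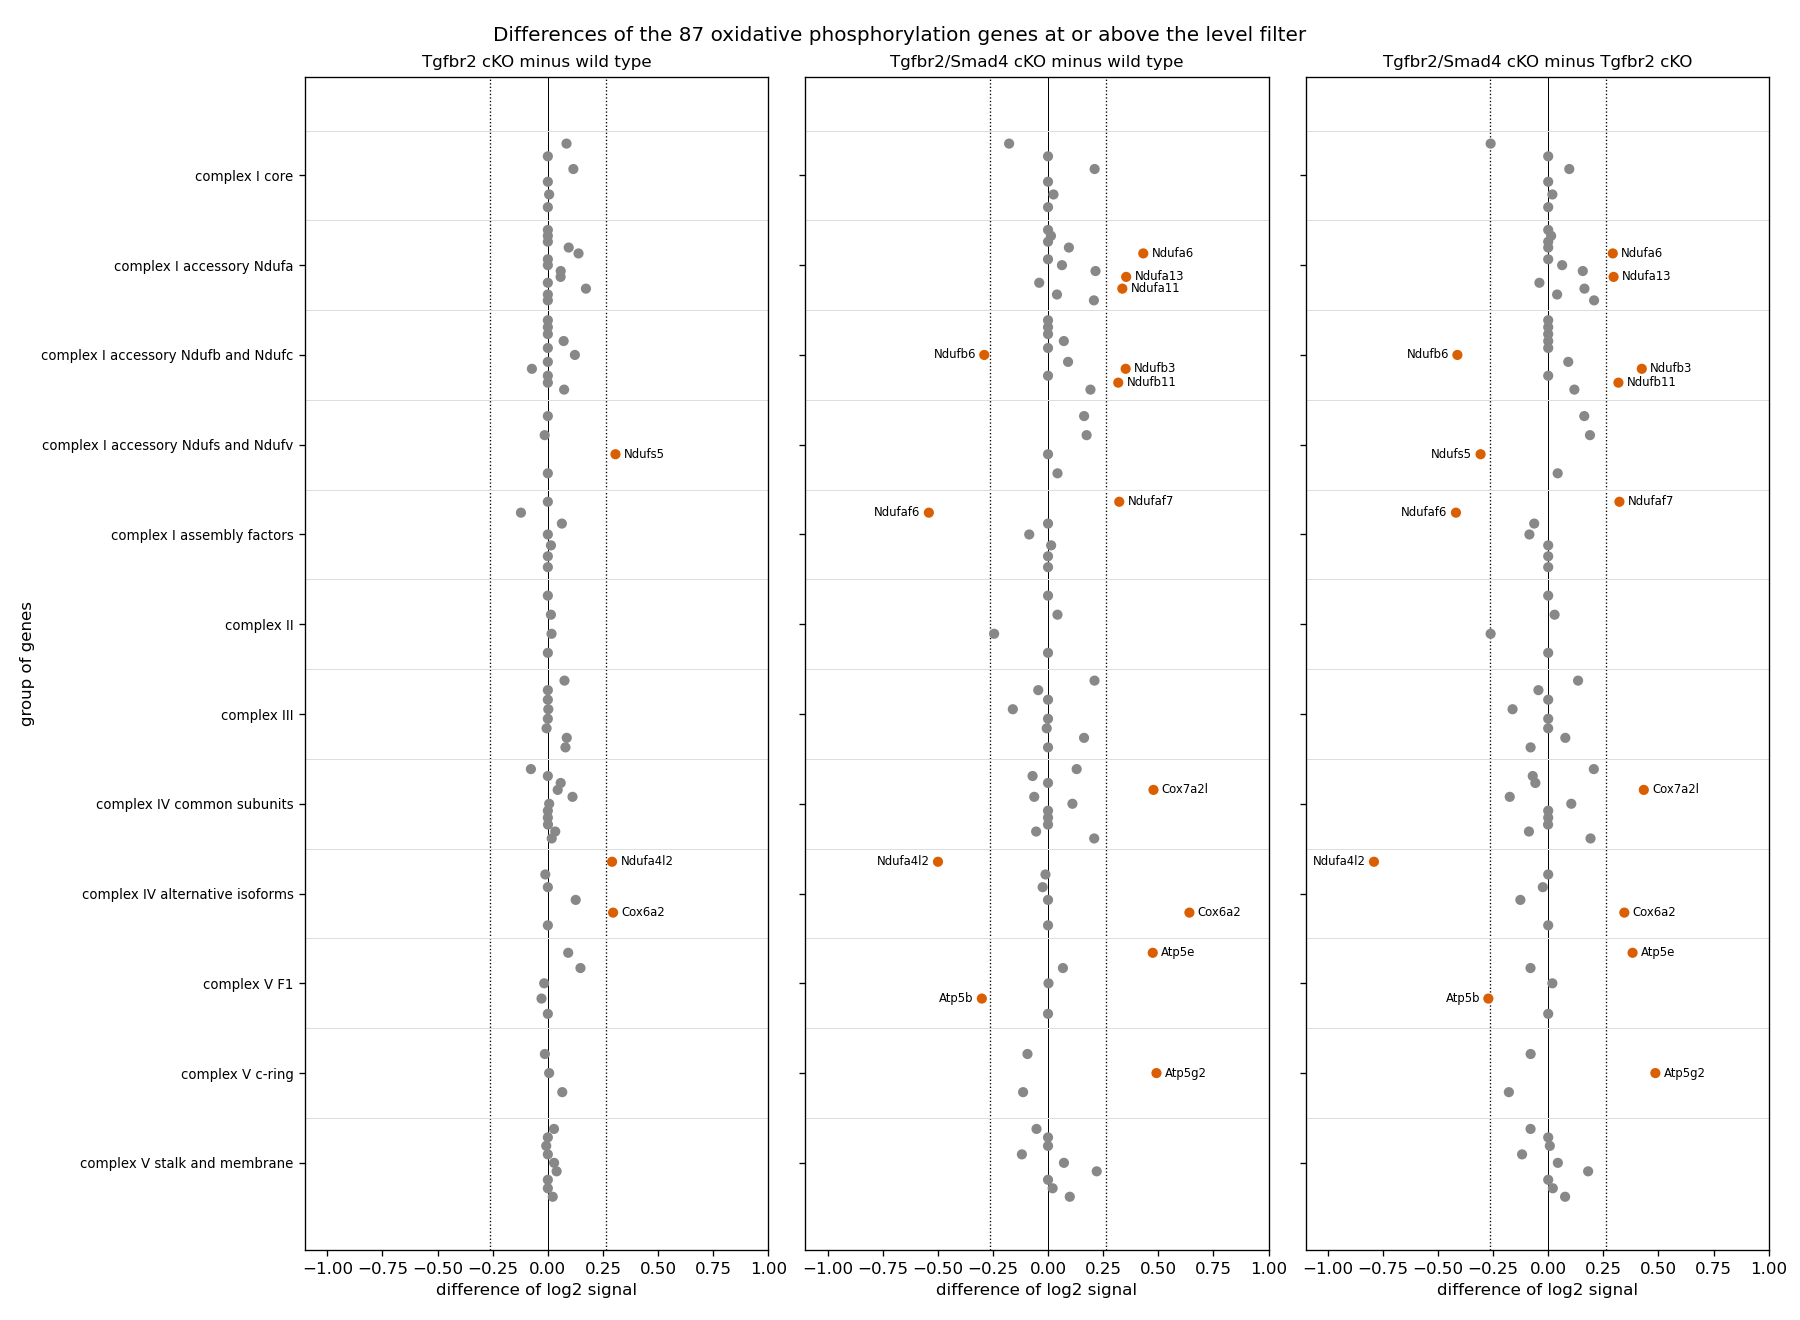
Each point is 1 of the 87 oxidative phosphorylation genes at or above the level filter, placed by its difference of log2 signal (x axis) within its group of genes (rows), with 1 panel per comparison. Dotted lines mark 1.2-fold, and named orange points lie past them. Most points lie at or near 0, and 3, 14 and 14 genes lie past the lines from left to right.

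Complex I takes in electrons from NADH through a peripheral arm that holds the flavin and iron-sulfur clusters. The 6 nuclear core genes measured were close to constant. Ndufs1, at 10.68, and Ndufs7, at 10.11, which carry iron-sulfur clusters, each had 1 value in all 3 arrays, as did Ndufv1, the flavin-binding subunit that oxidises NADH, at 10.68. Ndufs3 had levels of 11.37, 11.37 and 11.39, a range of 0.02. Ndufs8, an iron-sulfur subunit close to the quinone site, had levels of 10.19, 10.30 and 10.40, and differences to wild type of 0.12 and 0.21. Ndufv2, another iron-sulfur subunit, had levels of 11.17, 11.25 and 10.99, the lowest in the Tgfbr2/Smad4 cKO array. No core gene passed 1.2-fold, although Ndufv2, at -0.261 in Tgfbr2/Smad4 cKO minus Tgfbr2 cKO, was just short of it, and it passed at -0.265 with each array centred on its median.

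Accessory subunits surround the core and stabilise the complex. Of the 34 complex I subunit genes, core genes included, 19 were above 0 and 3 below in Tgfbr2/Smad4 cKO minus wild type, or 55.9% and 8.82%, with a median of 0.03, beside 31.1% and 32.2% of all genes and a median of 0. Of the 34, 5 were at least 1.2-fold higher and 1 lower, or 14.7% and 2.94%, beside 9.18% and 13.2% of all genes. The largest difference was that of Ndufa6, an accessory subunit of the peripheral arm, with levels of 10.01, 10.15 and 10.44 and a difference of 0.43, or 1.35-fold. Ndufa13, a subunit also known as GRIM-19 and as a regulator of STAT3, had levels of 10.04, 10.10 and 10.39 and a difference of 0.35. Ndufa11, of the membrane arm, had levels of 11.20, 11.38 and 11.54, with differences to wild type of 0.17 in the Tgfbr2 cKO array and 0.34 in the Tgfbr2/Smad4 cKO array. In each of these 3 genes the Tgfbr2/Smad4 cKO array was the highest and wild type the lowest. Of the 13 Ndufa and Ndufab1 genes, 9 were above 0 and 1, Ndufa12 at -0.04, was below. Ndufa2 and Ndufa1 were the next highest at 0.22 and 0.21, while Ndufa5, Ndufa8 and Ndufab1, the mitochondrial acyl carrier protein gene, each had 1 value in all arrays.

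Genes of the Ndufb and Ndufc series encode subunits of the membrane arm. Ndufb3 had levels of 9.51, 9.43 and 9.86, and Ndufb11 had levels of 10.84, 10.84 and 11.16, which gave differences to wild type of 0.35 and 0.32 in the Tgfbr2/Smad4 cKO array. Ndufb6 went the other way, with levels of 11.95, 12.07 and 11.66 and a difference of -0.29 to wild type and -0.41 to the Tgfbr2 cKO array. After quantile normalization its difference to wild type was -0.226, short of 1.2-fold. Both Ndufb11 and Ndufa1 lie on the X chromosome, as does Cox7b of complex IV, whose level was 10.87 in both the wild-type and the Tgfbr2/Smad4 cKO array. Of 343 X-linked genes tested, 11.1% were at least 1.2-fold higher and 15.5% lower in Tgfbr2/Smad4 cKO than in wild type. Of 11458 genes on other chromosomes, 9.13% were higher and 13.1% lower, and the median difference was 0 in both sets. Ndufb2, Ndufb7, Ndufb9, Ndufc1 and Ndufc2 each had 1 value in all 3 arrays.

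Of the Ndufs and Ndufv accessory genes, Ndufs5 was the single complex I gene past 1.2-fold in Tgfbr2 cKO minus wild type. It had levels of 10.94, 11.25 and 10.94, so the Tgfbr2 cKO array stood 0.31 above both others. A separate probe set that the annotation gives to Ndufs5 and its pseudogene together read 10.74, 10.74 and 10.60, with no difference between Tgfbr2 cKO and wild type, so the 2 readings disagreed. Ndufs6 and Ndufv3 were higher by 0.17 and 0.16 in the Tgfbr2/Smad4 cKO array than in wild type.

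Assembly factors join the modules of complex I and do not stay in it. Of the 7 genes, Ndufaf7, a mitochondrial methyltransferase, had levels of 8.87, 8.87 and 9.19, higher by 0.32 in the Tgfbr2/Smad4 cKO array than in both others. Ndufaf6 had levels of 7.31, 7.18 and 6.77, and its difference of -0.54 to wild type, 1.45-fold, was the most negative of all 87 genes in that comparison. The other 5 stayed within 0.09 of wild type in both knockout arrays.

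Complex II, succinate dehydrogenase, is also an enzyme of the TCA cycle, and none of its 4 genes passed 1.2-fold in any comparison. Sdha, the flavin subunit, had a level of 11.75 and Sdhd, a membrane anchor, a level of 10.94 in all 3 arrays. Sdhc, the other anchor, had levels of 11.48, 11.49 and 11.52. Sdhb, the iron-sulfur subunit, had levels of 10.97, 10.98 and 10.72, with a difference of -0.24 between Tgfbr2/Smad4 cKO and wild type. Against Tgfbr2 cKO its difference was -0.261, just short of 1.2-fold, and -0.265, past it, with each array centred on its median. Of the 8 genes of complex III, 0 passed 1.2-fold in any comparison, and with so few genes these counts of 0 set neither complex apart from all genes, of which 25% passed. Uqcrc1, a core protein gene, and Uqcrfs1, the Rieske iron-sulfur protein gene, had single values of 11.58 and 10.34. Uqcrc2, the other core protein gene, had levels of 11.90, 11.90 and 11.74, while Uqcrq, of a small subunit, had levels of 10.90, 10.98 and 11.11. These last 2 genes set the range of the 8 complex III genes in Tgfbr2/Smad4 cKO minus wild type, from -0.16 to 0.21.

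**Figure D2:**
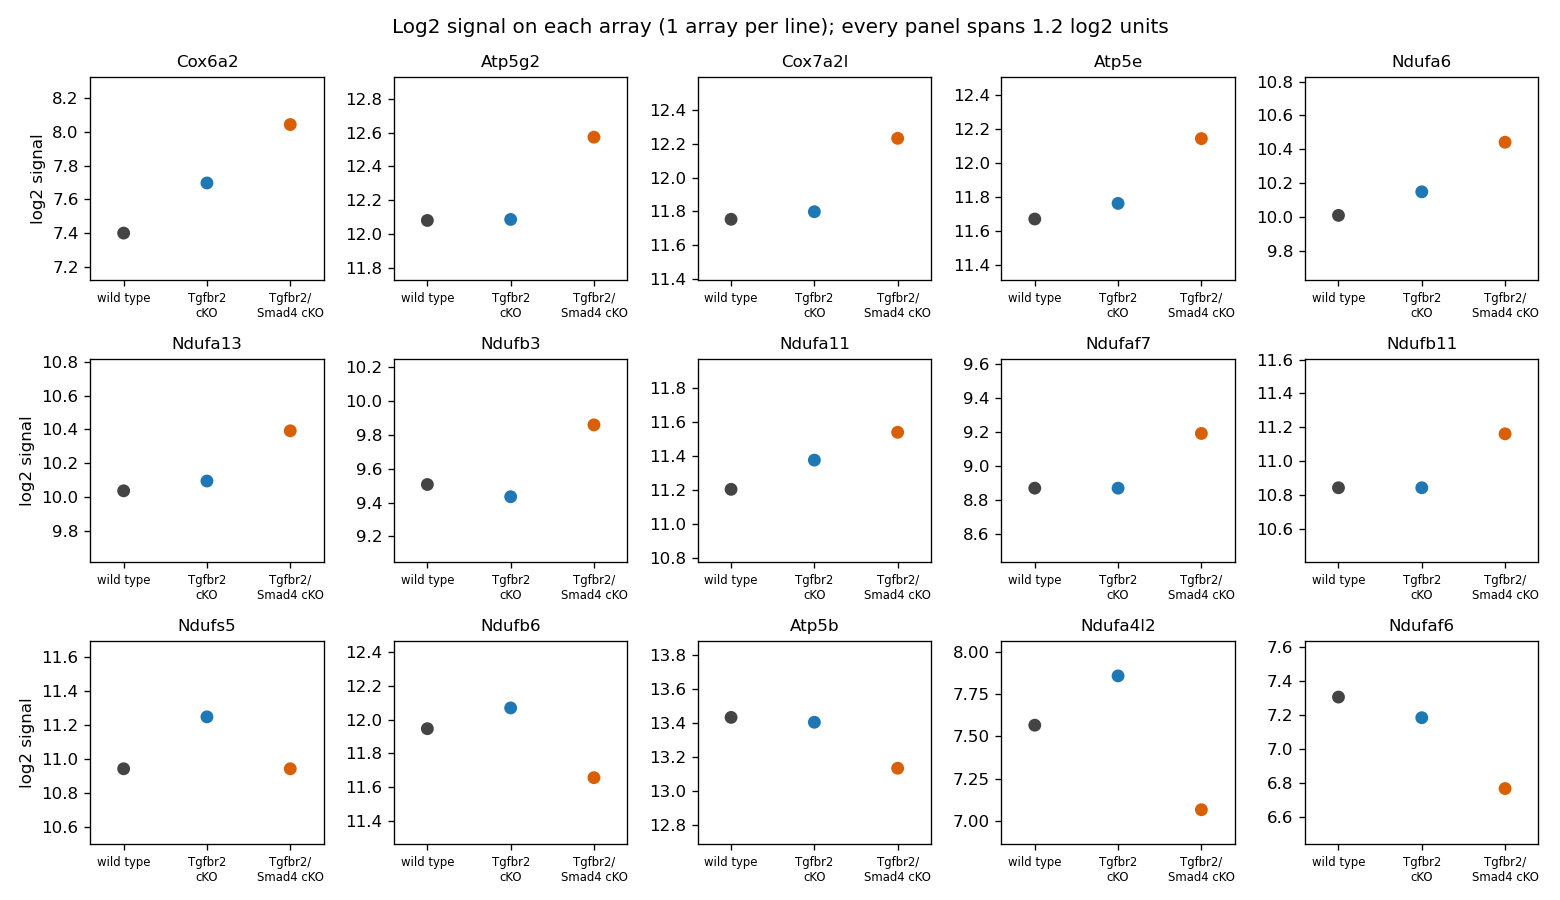
Each panel is 1 of the 15 genes that passed 1.2-fold in any comparison, and each point is the log2 signal (y axis) on the array of 1 line, wild type, Tgfbr2 cKO or Tgfbr2/Smad4 cKO. Panels are ordered by Tgfbr2/Smad4 cKO minus wild type, from 0.64 for Cox6a2 to -0.54 for Ndufaf6, and there are no error bars because each line had 1 array.

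Complex IV, cytochrome c oxidase, has several subunits with alternative isoforms that are used in particular tissues or conditions. Beside 25% of all genes tested, 1 of the 11 common genes passed 1.2-fold in at least 1 comparison. This was Cox7a2l, which encodes a factor for joining complex III and complex IV into supercomplexes and whose protein form is known to differ between inbred mouse strains. Its levels were 11.75, 11.80 and 12.23, so it was higher by 0.48, or 1.39-fold, in the Tgfbr2/Smad4 cKO array than in wild type. Its 2 probe sets gave differences of 0.576 and 0.38, the widest disagreement among the 17 genes with more than 1 probe set, though both were past 1.2-fold. Cox4i1, which takes part in the regulation of the enzyme by ATP, had levels of 12.64, 12.66 and 12.85 and a difference of 0.21. Cox6a1 and Cox6b1 had single values of 13.07 and 13.20 in the 3 arrays. Cox7a2 had levels of 11.44, 11.55 and 11.38, Cox7b of 10.87, 10.93 and 10.87, and Cox8a of 11.02, 11.02 and 10.95. None of these 3 differed from wild type by more than 0.11 in either knockout array.

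Of the 8 alternative isoform genes 6 reached the median signal. Of these, 2, Cox6a2 and Ndufa4l2, passed 1.2-fold in at least 1 comparison, beside 25% of all genes tested. With so few genes, this count does not set the isoforms apart from all genes. Cox6a2, the form of heart and skeletal muscle, had levels of 7.40, 7.70 and 8.04. It was higher by 0.30 in the Tgfbr2 cKO array and by 0.64, or 1.56-fold, in the Tgfbr2/Smad4 cKO array, the largest difference of the 87 genes in that comparison, while its common partner Cox6a1 did not differ. Of 9 markers of skeletal and heart muscle, 4 reached the median signal, the summed level of all 9 was 9.98, 9.97 and 10.05 in the 3 arrays, and the myosin genes Myh1, Myh2 and Myh4 stood between 5.28 and 5.57 in each array. Of the 4, Actc1 at 8.65 and Ckm at 6.91 each had a single value in all 3 arrays. Tnnt2, the cardiac troponin T gene, had levels of 7.05, 7.05 and 7.42, higher by 0.37 in the Tgfbr2/Smad4 cKO array than in wild type. Myog, a muscle transcription factor gene, had levels of 6.50, 6.38 and 6.64, higher by 0.14. It reached the median signal, 6.63, in the Tgfbr2/Smad4 cKO array alone. The part of these genes in the difference of Cox6a2 was not tested. Cox8b, another muscle form, had levels of 5.90, 5.90 and 6.22, and its difference of 0.32 was not counted because all 3 were under the median signal. Cox4i2, a form linked to low oxygen, had a level of 6.83 in all arrays, and Cox7b2 one of 4.73. Cox7a1 had levels of 6.71, 6.71 and 6.69, Cox6b2 of 7.60, 7.72 and 7.60, and the testis form Cox8c of 6.94, 6.93 and 6.93.

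Ndufa4 is named as a complex I gene but its protein is a subunit of complex IV, and Ndufa4l2 is its hypoxia-induced paralog. Ndufa4 had levels of 12.65, 12.58 and 12.78. Ndufa4l2 had levels of 7.57, 7.86 and 7.07, so it was highest in the Tgfbr2 cKO array and lowest in the Tgfbr2/Smad4 cKO array. Its differences were 0.29 and -0.50 to wild type, and -0.79 between the knockout arrays, 1.73-fold, the widest of the 87 genes in that comparison. In each of those comparisons the difference of Ndufa4 had the opposite sign. With 32 added to each linear signal, the difference of Ndufa4l2 between Tgfbr2 cKO and wild type was 0.25, as was that of Cox6a2, both short of 1.2-fold. Genes induced by hypoxia or encoding glycolytic enzymes are given beside it. Of 28 tested, 6 were at least 1.2-fold higher and 0 lower in Tgfbr2 cKO than in wild type, with a median of 0.10. These were 21.4% and 0%, beside 1.55% and 1.36% of all genes tested. In the Tgfbr2/Smad4 cKO array 2 were higher and 15 lower than in wild type, with a median of -0.29. These were 7.14% and 53.6%, beside 9.18% and 13.2% of all genes tested. Hif1a, the gene of the hypoxia-inducible factor subunit, had levels of 12.30, 12.36 and 11.74. What these genes have to do with Ndufa4l2 was not tested.

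**Figure D3:**
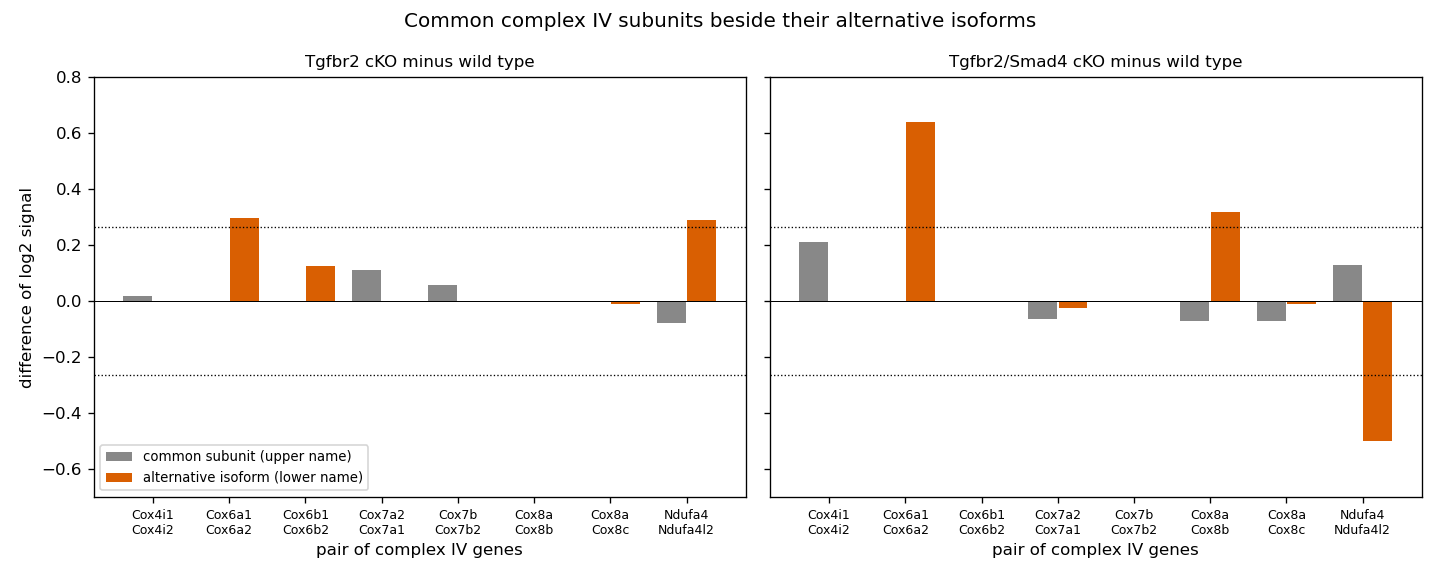
Bars give the difference of log2 signal (y axis) of a common complex IV gene (grey) and its alternative isoform (orange) for the pairs named on the x axis, with wild type subtracted from Tgfbr2 cKO (left) or from Tgfbr2/Smad4 cKO (right), and dotted lines at 1.2-fold. Cox6a2 is past the upper line in each panel, and Ndufa4l2 is past the upper line on the left and past the lower line on the right, while every grey bar stays between the lines. Cox8b, under the level filter and so not counted, is at 0.32 on the right.

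Complex V consists of the F1 head, where ATP is made, and a membrane part with a ring of c subunits joined to F1 by stalks. Within F1 the genes went apart in the Tgfbr2/Smad4 cKO line. Atp5a1, of the alpha subunit, had a level of 12.84 in all 3 arrays, and Atp5c1, of the gamma subunit, had levels of 12.69, 12.67 and 12.69. Atp5b, of the catalytic beta subunit, had levels of 13.43, 13.40 and 13.13, a difference of -0.30 between Tgfbr2/Smad4 cKO and wild type, or 1.23-fold. Its difference to the Tgfbr2 cKO array was -0.27, and after quantile normalization it was -0.252, short of 1.2-fold. Atp5d, of the delta subunit, had levels of 11.89, 12.04 and 11.96. Atp5e, of the epsilon subunit of the central stalk, had levels of 11.67, 11.76 and 12.14, higher by 0.47, or 1.39-fold, in the Tgfbr2/Smad4 cKO array than in wild type.

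Atp5g1, Atp5g2 and Atp5g3 encode the same mature c subunit behind different import sequences. Atp5g2 had levels of 12.08, 12.09 and 12.57, and its difference of 0.49 between Tgfbr2/Smad4 cKO and wild type, 1.41-fold, was the largest of complex V. The 3 probe sets of Atp5g2 gave differences that lay within 0.03 of each other. Atp5g1 and Atp5g3 had differences of -0.11 and -0.09, so 1 of the 3 c-subunit genes was higher and the others were slightly lower. The probe sets of such short, closely related genes, and those of their processed copies, may share sequence, so small differences between gene copies are uncertain. Of the 9 stalk and membrane genes none passed 1.2-fold in any comparison, beside 25% of all genes tested. With so few genes, this count does not set them apart from all genes. The differences of the 9 genes in Tgfbr2/Smad4 cKO minus wild type ran from -0.12 for Atp5md to 0.22 for Atp5k, which passed at 0.276 after quantile normalization.

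To show sequence in front of these genes, the 250 bases before the RefSeq start (GRCm38.p6) were read for 4 short sequences on both strands. These were TGCGCA, the core of the element of NRF1, a factor known to drive respiratory genes; CCGGAAG, an ETS element that GABP reads; AAGATGG, the core of the YY1 element; and ACGTG, the core of the hypoxia response element. Promoters were matched for 73 of the 89 genes. TGCGCA was found in 14 of them, or 19.2%, against 11.9% of the 9468 promoters of genes tested and 6.66% of all 27025 promoters. CCGGAAG was found in 12, or 16.4%, against 13.6% and 7.05%. ACGTG was found in 15, or 20.5%, against 22% and 16.6%, and AAGATGG in 0, against 4.33% and 4.53%. Of the 9 matched promoters of genes at least 1.2-fold higher in Tgfbr2/Smad4 cKO, TGCGCA was in 2, and CCGGAAG and ACGTG in 1 each, and of the 2 matched among the 4 lower genes TGCGCA and CCGGAAG were both in 1. The letters were thus found among both the higher and the lower genes, and such matches describe sequence and are not binding sites. Shown here in capitals are the matches of these sequences, on either strand, for 3 genes that were higher (Ndufa6, Atp5g2, Atp5e) and 2 that were lower (Ndufb6, Atp5b). The windows are chr15:82354292-82354541 on the minus strand, chr15:102671048-102671297 on the minus strand, chr2:174464102-174464351 on the minus strand, chr4:40279422-40279671 on the minus strand and chr10:128083057-128083306 on the plus strand, in that order.
Ndufa6: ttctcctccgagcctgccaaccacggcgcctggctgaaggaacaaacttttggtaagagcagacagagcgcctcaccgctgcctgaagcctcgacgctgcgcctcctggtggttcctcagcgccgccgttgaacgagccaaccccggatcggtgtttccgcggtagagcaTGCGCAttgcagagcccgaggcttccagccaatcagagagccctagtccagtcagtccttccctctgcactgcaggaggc
Atp5g2: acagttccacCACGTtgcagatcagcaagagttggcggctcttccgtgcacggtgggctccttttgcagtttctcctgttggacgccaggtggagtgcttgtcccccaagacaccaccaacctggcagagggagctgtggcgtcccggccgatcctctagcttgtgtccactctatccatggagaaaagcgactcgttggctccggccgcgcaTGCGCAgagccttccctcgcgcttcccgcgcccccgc
Atp5e: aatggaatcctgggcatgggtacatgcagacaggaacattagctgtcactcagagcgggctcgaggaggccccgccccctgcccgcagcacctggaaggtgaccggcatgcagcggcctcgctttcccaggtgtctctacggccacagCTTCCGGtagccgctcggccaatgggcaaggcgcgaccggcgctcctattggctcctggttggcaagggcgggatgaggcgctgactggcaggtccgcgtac
Ndufb6: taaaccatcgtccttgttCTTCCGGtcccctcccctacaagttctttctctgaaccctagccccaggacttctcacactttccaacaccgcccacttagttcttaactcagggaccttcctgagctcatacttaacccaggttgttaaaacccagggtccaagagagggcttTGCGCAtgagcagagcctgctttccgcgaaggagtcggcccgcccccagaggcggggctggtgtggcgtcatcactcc
Atp5b: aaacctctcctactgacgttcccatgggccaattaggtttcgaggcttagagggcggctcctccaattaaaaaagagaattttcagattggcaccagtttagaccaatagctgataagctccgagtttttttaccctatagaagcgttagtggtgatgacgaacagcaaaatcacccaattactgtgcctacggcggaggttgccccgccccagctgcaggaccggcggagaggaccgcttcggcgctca

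Ndufa6 and Ndufb6, of which the first was higher and the second lower, both hold TGCGCA, and Atp5g2 holds it near its start together with ACGTG farther upstream. Atp5e and Ndufb6, again a higher and a lower gene, hold CTTCCGG, the ETS letters read on the other strand. None of the 4 sequences is present in the window of Atp5b.

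Other mitochondrial genes were set beside these by lists. Assembly factors and electron carriers that the symbol rule leaves out had 3 of 37 at least 1.2-fold higher and 3 lower in Tgfbr2/Smad4 cKO minus wild type, where 9.18% of all genes were higher and 13.2% lower. Among them were Coa7, a complex IV assembly factor gene, at -0.49 and Ecsit, a complex I assembly factor gene, at -0.45. Genes of the mitochondrial ribosome, which translates the subunits encoded in mitochondrial DNA, had 2 of 77 higher and 4 lower, or 2.6% and 5.19%, with Mrpl52 at -0.57 and Mrps27 at -0.55. Of 21 genes for mitochondrial DNA maintenance and expression, 0 were higher and 1, the elongation factor gene Tufm at -0.38, was lower, or 0% and 4.76%.

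In the same comparison, 9.18% of all genes were higher by at least 1.2-fold and 13.2% lower. Of 37 genes for import and inner membrane proteases, 3 were higher and 8 lower, or 8.11% and 21.6%, with a median of -0.0032. Among them were Timm23, the channel of the inner membrane translocase, at -0.62 and the outer membrane receptor gene Tomm70a at -0.55. Of 13 genes for carriers and uncoupling proteins, 1 was higher and 4 were lower, or 7.69% and 30.8%, with a median of -0.02. The higher gene was the aspartate-glutamate carrier gene Slc25a12 at 0.57, and the most negative was the outer membrane channel gene Vdac2 at -0.44. No test compared these lists with all genes. Of 25 TCA cycle and pyruvate dehydrogenase genes, 5 were higher and 2 lower, or 20% and 8%. The largest differences were those of Pdp1, a phosphatase that activates pyruvate dehydrogenase, at 0.99 and the pyruvate carboxylase gene Pcx at 0.61. Of 16 regulators of mitochondrial genes, 0 were higher and 3 lower, or 0% and 18.8%, with Myc at -0.78 and Hif1a at -0.56. Of 8 oxidant defence genes 0 passed 1.2-fold, a count too small to set them apart from all genes. In Tgfbr2 cKO minus wild type, 2 genes of these 8 lists passed 1.2-fold, Pcx at -0.29 and Slc25a13 at -0.31. Of all genes tested, 1.55% were higher and 1.36% lower by that size in this comparison. The median difference of each list lay within 0.03 of 0 in both comparisons to wild type, as it did for the oxidative phosphorylation genes and for all genes tested. Equal values hold medians near 0, so this does not show that the groups were alike. In Tgfbr2/Smad4 cKO minus wild type, 8 of the 37 import genes were above 0 and 19 below, against 37 and 20 of the 87 oxidative phosphorylation genes.

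**Figure D4:**
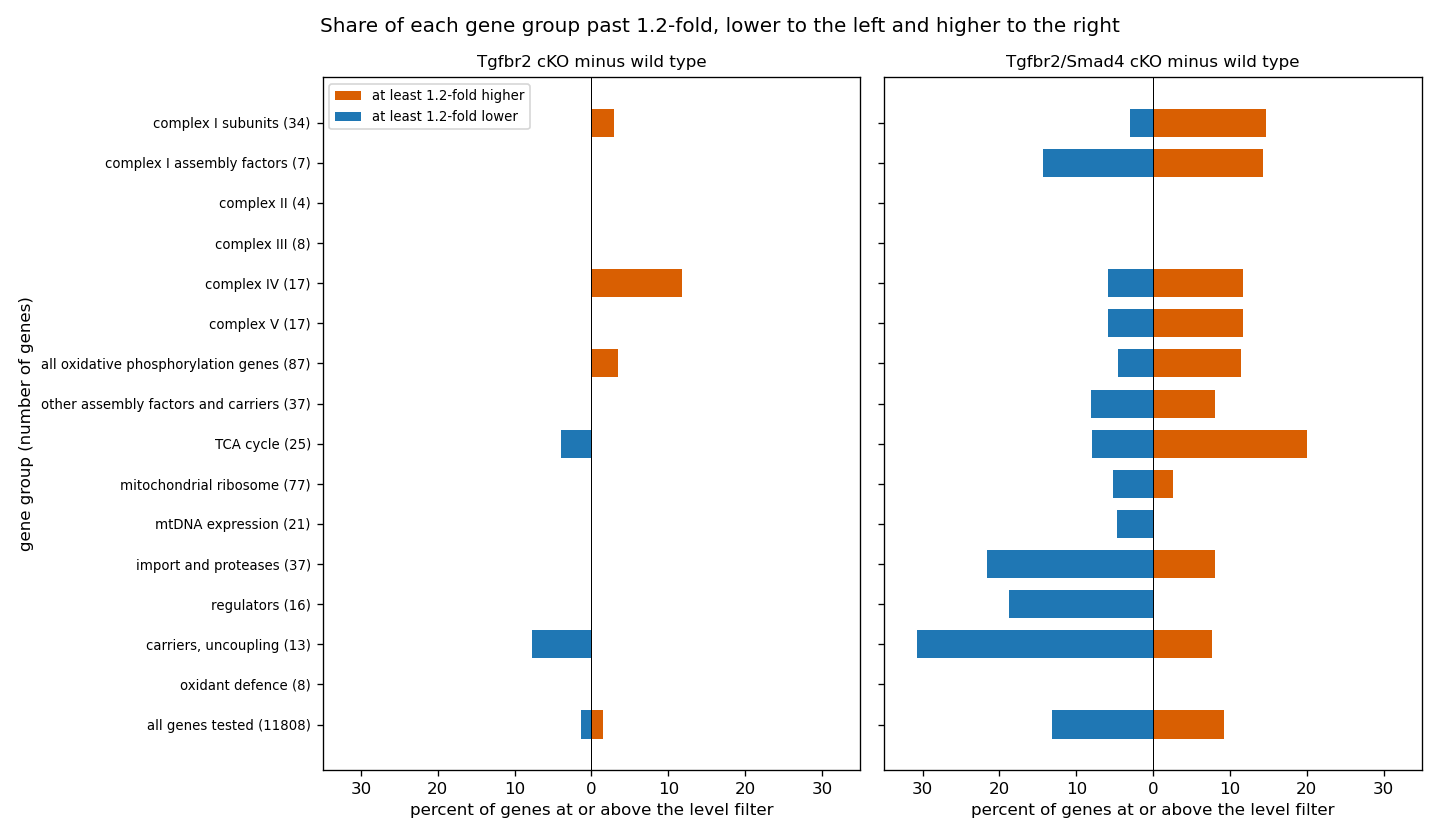
Bars give the percent of genes at or above the level filter (x axis) that were at least 1.2-fold higher (orange, right) or lower (blue, left) in each gene group (rows, with the number of genes), with wild type subtracted from Tgfbr2 cKO (first panel) or from Tgfbr2/Smad4 cKO (second panel). In the second panel all oxidative phosphorylation genes have 11.5% higher and 4.6% lower, and all genes tested have 9.18% and 13.2%.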

How the data were processed

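The values were log2 signals that the authors deposited as 1 table of 35556 probe sets on 3 arrays. The log2 scale was inferred from the range of 2.82 to 15.6. What software, normalization and genome build they used is not given in the sources used here. Array medians differed by at most 0.00413, so values were used as deposited. Probe sets with 1 symbol in the platform annotation (21789) were averaged per gene, after symbols were updated by gene identifier through a RefSeq table (GRCm38.p6). Left out were 6 probe sets that carry a symbol fitting the rule together with a second symbol. A gene was compared if its highest value reached 6.63, the median of all values. Members, lists, the 1.2-fold size and the alternatives were chosen with earlier results of these data known. Levels are printed for genes past 1.2-fold, core and catalytic subunits, paired isoforms and the widest-ranging gene of each complex, and of other lists mainly for the 2 genes with the largest difference per comparison. S100a4, Epcam, Cdh1, Krt5, Ptprc, Csf1r, Ckm, the myosin genes and Nnt were named outside this rule, after their values were seen. The counting step was tested on simulated data. Alternatives covered normalization, the level filter, the probe set rule, the scale, membership, equal values and the fold. Analyses used Python 3.11.15 with numpy 2.4.6 and pandas 2.3.3, and R 4.3.3 with limma 3.58.1 for normalization.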

Additional observations from a re-analysis of the deposited data

How the results depend on the processing

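No paired analysis was possible because each line had 1 array and no replicate number. Of 96 recomputed counts and medians, 84 stayed within 1.5 times the reported count or 0.05 of the reported median. Among the 45 genes followed singly, none past 1.2-fold changed sign, and 4 calls of single differences were lost, all named with the genes above. Over all 87 genes and the normalization, probe set and scale alternatives, 4 calls were gained, those of Ndufv2 and Sdhb in Tgfbr2/Smad4 cKO minus Tgfbr2 cKO with median centring, which took the lower count from 5 to 7, and after quantile normalization those of Ndufa1 at 0.268 in the same comparison and Atp5k in Tgfbr2/Smad4 cKO minus wild type. For Tgfbr2 cKO minus wild type the 3 higher genes became 1 with a filter at the 75th percentile, 1 with 32 added to the linear signal and 0 at 1.5-fold. For Tgfbr2/Smad4 cKO minus wild type the 10 higher genes became 6 when only genes with 1 probe set were kept, which leaves out genes such as Atp5g2 and Cox7a2l, and 1 at 1.5-fold, and the 4 lower genes became 2 with the 75th percentile filter and 0 at 1.5-fold. For Tgfbr2/Smad4 cKO minus Tgfbr2 cKO the 9 higher genes became 0 at 1.5-fold, and the 5 lower became 3 with the 75th percentile filter and 1 at 1.5-fold. With only the 37 oxidative phosphorylation genes whose 3 values all differ, the median was 0.0987 for Tgfbr2/Smad4 cKO minus wild type and 0.0766 for Tgfbr2/Smad4 cKO minus Tgfbr2 cKO, where the same medians over 4419 genes were -0.0591 and -0.0743. Equal values therefore hold the reported medians at 0. Signals close to the median of all probe sets, as for the alternative complex IV isoforms, limit how far their differences can be read.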

Other observations

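Some subunits of these complexes were read by probe sets outside the counts above. Cox7c, of complex IV, shares 3 probe sets with a second symbol, Gm12338, and these were higher by 0.09 to 0.14 in the Tgfbr2/Smad4 cKO array than in wild type and equal between Tgfbr2 cKO and wild type. Ndufb4, of complex I, shares 2 probe sets with Ndufb4b, which were higher by 0.07 and 0.09 in the Tgfbr2/Smad4 cKO array. The annotation also lists probe sets for subunits encoded in mitochondrial DNA, which were chosen here after their values were seen. Those for COX2, a catalytic subunit of complex IV, differed from wild type by -0.03 in the Tgfbr2 cKO array and by at most 0.02 in the Tgfbr2/Smad4 cKO array. Those for ND3, a complex I subunit, were higher by 0.07 and 0.06 in the Tgfbr2/Smad4 cKO array. None of these probe sets passed 1.2-fold. Nnt, the gene of a proton-coupled transhydrogenase of the same membrane, read 11.23 in wild type, 11.22 in Tgfbr2 cKO and 11.28 in Tgfbr2/Smad4 cKO.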
